A study of Mus musculus with 12 samples.

Results

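The genes described here are the 10 MHC class II antigen presentation genes Cd74, H2-Aa, H2-Ab1, H2-Eb1, H2-DMa, H2-DMb1, H2-DMb2, H2-Oa, H2-Ob and Ciita, taken by symbol from tables of 23973 genes in IL7 cultures and 24015 genes in LPS cultures. All 10 stood in both tables and all 10 passed the filter on low counts in both cultures. RNA was sequenced from primary mouse B cells of WT mice and of mice carrying T58A, a point mutation in the transcription factor MYC, after 48 hours of culture. Marrow B cells, which the series design calls immature, were grown with the cytokine IL7, and splenic B cells, which it calls mature, with the bacterial product lipopolysaccharide (LPS). Each of the 4 groups (IL7 WT, IL7 T58A, LPS WT and LPS T58A) holds 3 libraries, each WT library bearing the pair number of a T58A library, and all were grown in RPMI with serum. The design speaks of littermates. The labels do not give the animals' age or strain, whether 1 or both Myc alleles carried the mutation, or which animal gave each library. The p-values below therefore measure a spread among these samples, which may be technical in part. Where the pair was fitted, as in IL7 cultures, it is the spread of the T58A changes between pairs. The genes were chosen by their symbols, with their levels and T58A changes in these libraries already known, so both are a description, given without a p-value.

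MHC class II molecules are pairs of an α and a β chain that display peptides from engulfed protein to helper T cells. In the endoplasmic reticulum the pair assembles on the invariant chain, encoded by Cd74, which fills the groove and steers the complex to endosomes. There proteases trim the invariant chain to a small fragment, the exchange factor H2-M removes that fragment so that other peptides can bind, and H2-O restrains H2-M, mainly in B cells. Genes of this pathway are switched on largely by the coactivator CIITA, encoded by Ciita. It docks on factors bound to the SXY module of class II promoters (S, X and Y boxes, the last an inverted CCAAT box). Class II rises as B cells mature.

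In IL7 cultures all 10 genes were lower in the T58A library than in the WT library of every pair, by 2.07 to 2.43 times for 8 of them and by 1.63 times for H2-Ob and 1.56 times for Ciita, as ratios of group means of 3 libraries. In LPS cultures no such shift was seen. There the members' fitted log2 changes lay between -0.02 and 0.25 and were smaller than their standard errors. The marrow pairs also differed from each other more than T58A differed from WT: the WT libraries of pairs 1 and 3 were 3.96 times apart for Cd74.

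On GRCm38, the build that the submitters' notes call mm10, 8 of the 10 genes lie together on chromosome 17. In order these are H2-Oa (chr17:34092340-34095234), H2-DMa (chr17:34119541-34139101), H2-DMb2 (chr17:34143307-34151555), H2-DMb1 (chr17:34153072-34160230), H2-Ob (chr17:34238903-34254414), H2-Ab1 (chr17:34257689-34269419), H2-Aa (chr17:34282744-34287823) and H2-Eb1 (chr17:34305867-34316674). All but H2-Aa are on the plus strand in GENCODE M21. Ciita lies on chromosome 16 (chr16:10480059-10528418, plus strand).

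Promoter windows, from 250 bases before to 50 after the gene start, were taken from RefSeq (GRCm38.p6), where 7 of the members had an entry, H2-DMa with 2, which makes 8 windows: H2-Oa, H2-DMa, H2-DMb1, H2-DMb2, H2-Ob, H2-Aa and H2-Eb1. GNAAC followed after 10 to 30 bases by ATTGG on the same strand, with both strands searched, was found in 5 of these 7 genes and in 3.51% of 32851 mouse promoters. GNAAC is a short core found in class II X boxes, and ATTGG is the inverted CCAAT of the Y box. The 5 stretches are shown because they hold this pair. H2-DMa and H2-DMb2, whose windows do not hold it, had similar T58A changes in IL7 cultures. Their windows lie inside the gene spans given above, past the span starts, so other starts of these genes were not searched. The H2-DMb2 window holds TTAAC before ATTGG, which differs from GNAAC in its first base only. Any part of these motifs in the T58A changes was not tested. The stretches read 5′ to 3′ on the gene's strand, and the capitals mark GNAAC and ATTGG.
H2-Oa: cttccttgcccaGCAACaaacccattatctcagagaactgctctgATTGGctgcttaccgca
H2-DMb1: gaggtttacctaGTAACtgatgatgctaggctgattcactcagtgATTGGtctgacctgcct
H2-Ob: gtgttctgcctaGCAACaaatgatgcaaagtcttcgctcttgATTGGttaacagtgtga
H2-Aa: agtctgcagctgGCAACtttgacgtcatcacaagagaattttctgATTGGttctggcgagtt
H2-Eb1: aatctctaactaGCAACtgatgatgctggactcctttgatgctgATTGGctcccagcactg
They lie at chr17:34092291-34092352 (H2-Oa, plus strand), chr17:34153085-34153146 (H2-DMb1, plus strand), chr17:34238806-34238864 (H2-Ob, plus strand), chr17:34287855-34287916 (H2-Aa, minus strand) and chr17:34305764-34305824 (H2-Eb1, plus strand). The gap between GNAAC and ATTGG was 28 bases in H2-Oa, H2-DMb1 and H2-Aa, 27 in H2-Eb1 and 25 in H2-Ob. ATTGG alone, on either strand, stood in all 7 genes and in 37.4% of promoters, and GNAAC in all 7 and in 84.8%. CACGTG, the E-box that MYC binds with its partner MAX, stood in 0 of the 8 windows and in 7.15% of all promoters. Such matches describe these windows only.

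Depth was 8486753 to 10201113 reads assigned to genes per IL7 library and 5110746 to 9332410 per LPS library, so that 3 reads, the most that a listed 0 leaves possible by counting error alone, equal 2.15 to 4.12 normalised reads. Normalised reads are the authors' values, read counts scaled by a size factor for each library, and each table was scaled on its own. Xist, transcribed from the inactive X chromosome, stood at 11281 to 23674 normalised reads in WT 1 and WT 2 of both cultures and at no more than 26.9 in WT 3 and every T58A library, so only pair 3 was of 1 sex. The IL7 WT 2 library also held 58.9 normalised reads of the Y-linked Eif2s3y, against 645 to 904 in the 4 IL7 libraries without Xist. The T58A changes of the class II genes in IL7 cultures are therefore also given within pair 3 and without pair 2, and those of the other called genes named here within pair 3. Myc, the mutated gene, was at 3024 ± 937 normalised reads in IL7 WT and 4087 ± 934 in IL7 T58A (SD, n = 3). Its fitted log2 change was 0.46 ± 0.07 (SE), at an adjusted p of 0.00791 by limma with the pair as a block, and its change within pair 3 was 0.32. Read counts do not show the mutation itself.

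Cd74, the invariant chain gene on chromosome 18, was the most abundant of the 10 transcripts in every library. In IL7 cultures it stood at 22038 normalised reads in WT 1 and 9212 in T58A 1, at 9732 and 4946 in pair 2, and at 5563 and 2738 in pair 3. Each T58A library was below its own partner, but T58A 1 was above WT 3, so the groups overlapped. The group means were 12444 ± 8566 and 5632 ± 3291 normalised reads (SD, n = 3), and the fitted log2 change was -1.09 ± 0.07 (SE).

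The classical chains form the peptide-binding molecules I-A and I-E. H2-Aa, the α chain of I-A, was at 4337 and 1866 normalised reads in WT and T58A of pair 1, at 2527 and 901 in pair 2, and at 1108 and 508 in pair 3. Its fitted log2 change of -1.28 ± 0.08 was the most negative of the 10, and only 0.672% of the 11604 genes tested had a lower one. H2-Ab1, the β chain of I-A, was at 4447 and 2117 normalised reads in pair 1, at 2292 and 1118 in pair 2, and at 1255 and 612 in pair 3. Its within-pair log2 changes of -1.07, -1.03 and -1.04 were nearly alike, and the fitted change was -1.05 ± 0.06. H2-Eb1, the β chain of I-E, was at 3385 and 1571 normalised reads in pair 1, at 2135 and 816 in pair 2, and at 907 and 380 in pair 3, with a fitted log2 change of -1.25 ± 0.08. For all of these chains the T58A library of pair 1 was above the WT library of pair 3. H2-Ea-ps, the α chain partner of H2-Eb1, which is a pseudogene in some mouse strains, had 0 reads in every WT library, at most 1.03 normalised reads in IL7 T58A, and reads in LPS cultures only in the T58A columns without a pair number. H2-Eb2, a further β chain gene named here after its values were seen, was at 135 ± 61.9 normalised reads in IL7 WT and 62.1 ± 30.3 in IL7 T58A (SD, n = 3).

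The genes of H2-M, the exchange factor, were less abundant and were lower by similar amounts. H2-DMa, its α chain, was at 748 and 315 normalised reads in pair 1, at 432 and 189 in pair 2, and at 250 and 116 in pair 3, a fitted log2 change of -1.18 ± 0.10. H2-DMb1 and H2-DMb2 encode β chains. H2-DMb1 was at 161 and 80.7 normalised reads in pair 1, at 114 and 49.6 in pair 2, and at 66.1 and 34.2 in pair 3, a fitted change of -1.03 ± 0.17. H2-DMb2 was at 300 and 132 normalised reads in pair 1, at 159 and 75.4 in pair 2, and at 94.7 and 38.0 in pair 3, a fitted change of -1.18 ± 0.14. These copies are near identical in places: 27.2% of the 50-base words of the H2-DMb1 transcript also occur in H2-DMb2, while the other members share none, so the split of reads between the 2 genes is uncertain.

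The chains of H2-O, the brake on H2-M, differed from each other. H2-Oa, the α chain, was at 412 and 184 normalised reads in pair 1, at 197 and 102 in pair 2, and at 152 and 71.3 in pair 3, a fitted log2 change of -1.06 ± 0.13. H2-Ob, the β chain, was at 3637 and 2180 normalised reads in pair 1, at 2328 and 1385 in pair 2, and at 1416 and 973 in pair 3. Its fitted change of -0.68 ± 0.07 was smaller, and its T58A library of pair 1 was again above WT 3. The read ratio of H2-Ob to H2-Aa was 0.839, 0.921 and 1.28 in the WT libraries of pairs 1 to 3 and 1.17, 1.54 and 1.92 in their T58A partners, higher in T58A in each pair.

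Ciita, the gene of the coactivator, was at 794 and 530 normalised reads in pair 1, at 636 and 399 in pair 2, and at 248 and 147 in pair 3. Its fitted log2 change of -0.67 ± 0.09 was the least negative of the 10, with 4.39% of genes tested lower. T58A 1 and T58A 2 were both above WT 3.

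**Figure D1:**
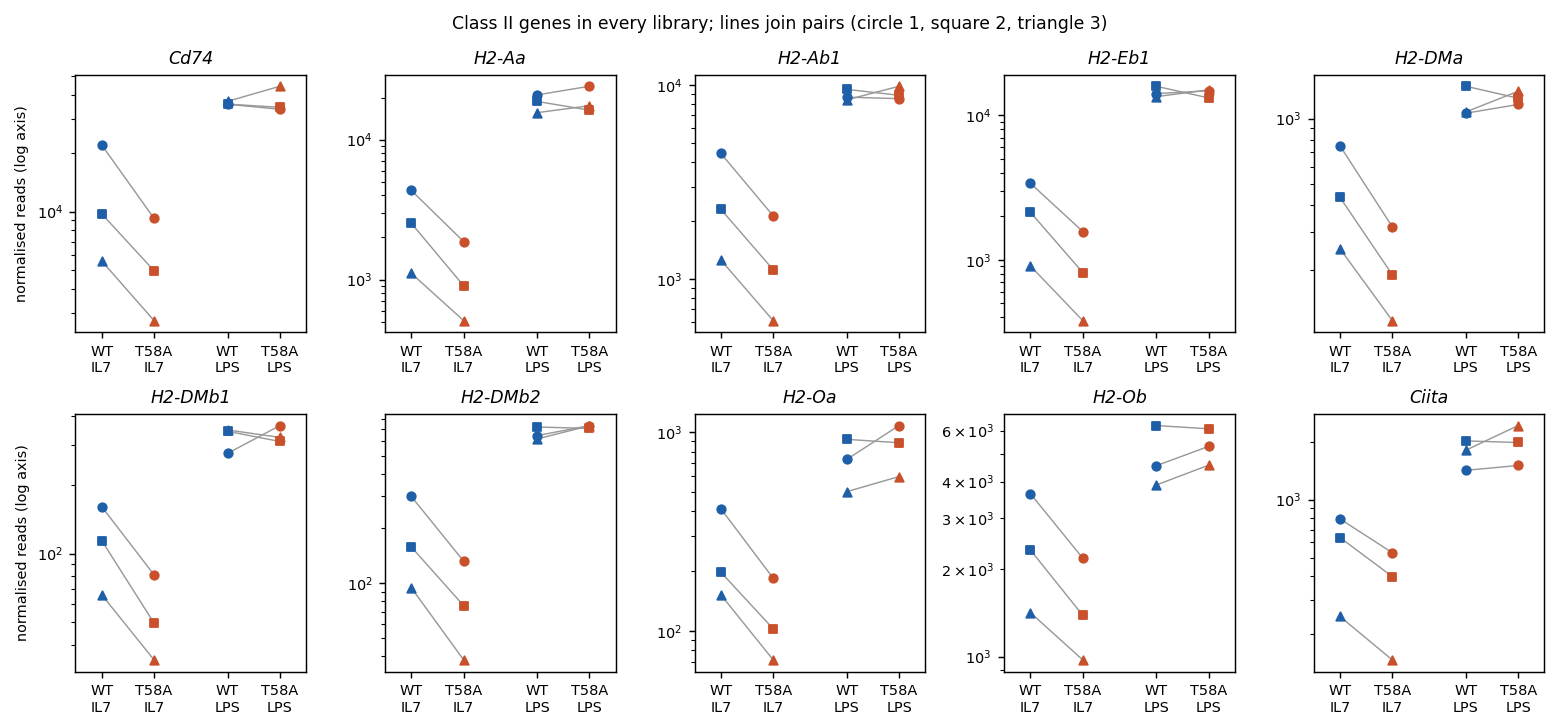
Normalised reads (log axis) of the 10 class II genes in each of the 12 libraries, with WT in blue, T58A in red and lines joining pairs 1 (circle), 2 (square) and 3 (triangle). In IL7 cultures every line falls and the groups overlap, as for Cd74 between 2738 and 22038, while in LPS cultures the lines cross; pairs 1 and 2 of the LPS cultures are joined as matched to the authors' p-values and not by label.

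Across the 10 genes the within-pair log2 changes in IL7 cultures ran from -1.49 to -0.54, with medians of -1.13, -1.05 and -1.06 in pairs 1, 2 and 3. All 30 were negative. A gene below WT in every pair was common among all genes (26.0% of those tested), and 0 of the 10 members were below WT without overlap of the groups, against 10.8% of all genes. With the pair fitted as a block, 10 of 10 members had an adjusted p under 0.05 as lower in T58A, where 6.31% of the 11604 genes tested were called lower and 6.41% higher. The genes were chosen for this pattern, so nothing is read from that count. The median fitted log2 change was -1.07 over the members and -0.01 over all genes tested.

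The count rests on the pairing. Without the pair as a block 0 of 10 members and 0 of 11604 genes were called, though 5 members and 1960 genes had an unadjusted p under 0.05. When sex was added to the pair block, which leaves pair 3 to carry the genotype, 4 members were called (Cd74, H2-Aa, H2-Ab1 and H2-Eb1; 0.25% of all genes were called lower). Within pair 3, both of whose IL7 libraries lacked Xist, the members' log2 changes were -1.29 to -0.54. With any 1 pair left out all 10 were still called, at a median log2 change of -1.13 to -1.05.

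**Figure D2:**
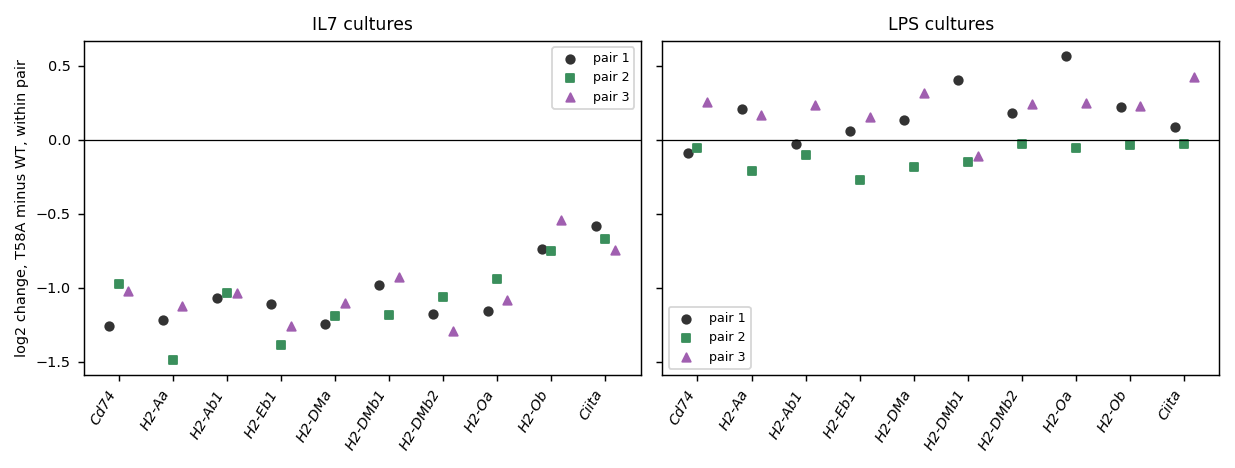
Log2 change (T58A minus WT) of each class II gene within each pair, for IL7 cultures on the left and LPS cultures on the right; 1 point is 1 pair. The IL7 points lie between -1.49 and -0.54 and the LPS points between -0.27 and 0.57, on both sides of 0.

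The class II level also separated the pairs. The 10 genes together took 0.434%, 0.222% and 0.118% of assigned reads in IL7 WT 1, 2 and 3 and 0.195%, 0.106% and 0.0587% in their T58A partners. The highest of the 3 WT libraries was 2.43 to 3.96 times the lowest, depending on the gene, which for each of the 10 genes is more than its ratio of group means between the genotypes. Cd74 kept a near constant share of the members' reads, 47.4% to 54.7% in WT and 48.7% to 50.7% in T58A.

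Marker levels of other cell types and stages moved beside these genes in IL7 cultures. Calls here are by limma with the pair as a block, where 6.31% of all 11604 genes tested were called lower and 6.41% higher. Without the block 0 genes were called, and only pair 3 was of 1 sex. The summed level of 14 mature B cell markers was 36357 to 60802 normalised reads in WT and 30513 to 38731 in T58A, with 8 of the 13 tested called lower and none at 0. Within pairs the mature sum changed by -0.65, -0.32 and -0.25 on the log2 scale, less than the class II sum, which changed by -1.15, -1.04 and -0.98. The 12 pro-B and pre-B cell markers summed to 31750 to 38949 in WT and 29005 to 32167 in T58A, with 3 of 12 called lower. Plasmablast markers, 8 in number, summed to 8838 to 10284 in WT and 9120 to 9635 in T58A. Of the 7 tested 1 was called lower and 1 higher. The 12 dendritic cell markers summed to only 98.0 to 223 in WT and 35.2 to 81.6 in T58A, with 1 of 4 tested called lower, Batf3 at 0 in every library and Zbtb46 at 0 in 5 of 6. The 14 monocyte and macrophage markers summed to 659 to 1273 and 483 to 798, with 1 of 8 tested called lower, and their sum was higher in T58A in pair 2. The 8 T and NK cell markers summed to 48.0 to 62.2 and 17.1 to 39.3, with the 1 gene tested called lower. The part of any of these in the class II result was not tested. In such bulk samples fewer cells that express class II and less RNA per cell cannot be told apart.

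**Figure D3:**
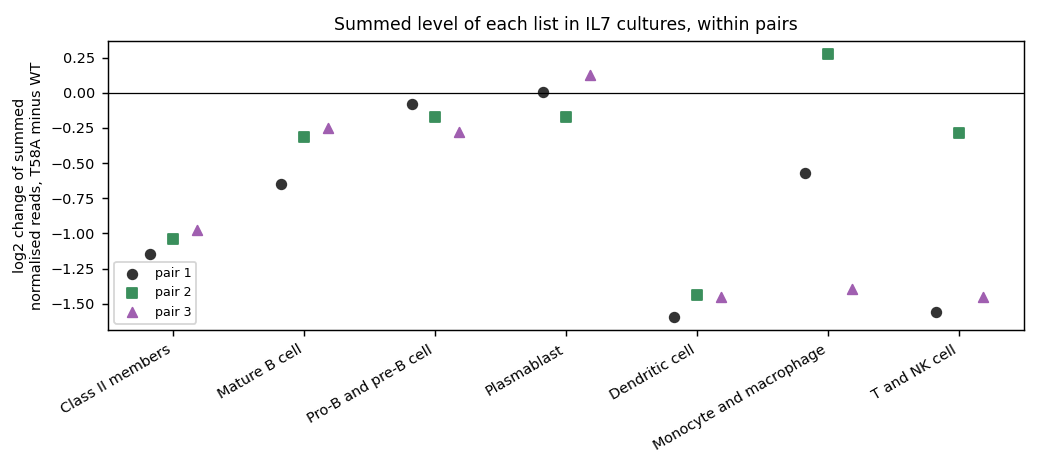
Log2 change (T58A minus WT) of the summed normalised reads of the class II genes and of 6 marker lists within each pair of IL7 cultures; 1 point is 1 pair. The class II sum lies at -1.15 to -0.98, the mature B cell sum at -0.65 to -0.25, and the dendritic cell sum, of at most 223 normalised reads, at -1.59 to -1.44.

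In LPS cultures the genes were abundant in all 6 libraries, at 1.20% to 1.41% of assigned reads for the 10 together. Cd74 was at 35726, 35780 and 36974 normalised reads in WT 1, 2 and 3, and at 33650, 34442 and 44230 in the first unnumbered, second unnumbered and number 3 T58A library. One header stands over both unnumbered T58A columns, so their pair numbers are not given. Only T58A 3 was above all the WT libraries, and the fitted log2 change was 0.04 ± 0.23 (SE). H2-Aa was at 20877, 18752 and 15585 normalised reads in WT and at 24076, 16242 and 17479 in T58A, a change of 0.05 ± 0.23. H2-Ab1 (0.04 ± 0.17) and H2-Eb1 (-0.02 ± 0.18) also had overlapping groups. H2-Eb1 was at 14145, 15893 and 13467 normalised reads in WT and at 14778, 13196 and 15004 in T58A.

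The exchange factor genes H2-DMa (0.09 ± 0.16), H2-DMb1 (0.05 ± 0.17) and H2-DMb2 (0.13 ± 0.14) had log2 changes within their standard errors. H2-Oa had the largest fitted change in LPS cultures, 0.25 ± 0.27, at 729, 922 and 502 normalised reads in WT and 1081, 886 and 598 in T58A. H2-Ob was at 4539, 6241 and 3894 in WT and at 5290, 6082 and 4558 in T58A (0.14 ± 0.21). Ciita was at 1419, 2016 and 1804 in WT and at 1504, 1978 and 2422 in T58A (0.16 ± 0.21). The groups overlapped for all 10 genes: 0 of 10 were below WT without overlap, against 3.3% of all genes, and 0 of 10 were below WT in every pair, against 19.0%.

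With the unnumbered libraries paired as they matched the authors' p-values, 13 within-pair log2 changes were negative and 17 positive, from -0.27 to 0.57. All 10 members were lower in T58A in pair 2, while 8 of 10 in pair 1 and 9 of 10 in pair 3 were higher. By limma 0 of 10 members and 0 of 11291 genes were called (0.0%), and 0 members and 284 genes had an unadjusted p under 0.05. edgeR called 0 genes and DESeq2 called 1, which was no member. In the authors' deposited table, whose p-values match a fit with the pair as a block, 225 genes have an adjusted p under 0.05 in LPS cultures, and none of the 10 members is among them. Plasmablast markers, whose cells silence class II, summed to 47501 to 113305 normalised reads in LPS WT and 30003 to 75985 in LPS T58A. None of the 8 was called. All 8 had negative fitted changes, at a median of -0.62, as did 5376 of the 11291 genes tested. The plasmablast sum changed by -1.12 and -0.66 on the log2 scale in pairs 1 and 2 as matched, and by -0.51 in pair 3. Igj, 1 of the 8, had a mean of 46688 ± 25567 normalised reads in LPS WT and 23327 ± 13974 in LPS T58A (SD, n = 3). The part of the plasmablast markers was not tested. Markers of dendritic cells, 12 in number, summed to 824 to 1560 in WT and 1176 to 2150 in T58A, with 0 of 5 tested called. Most of this sum came from 1 gene, Flt3, whose mean was 978 normalised reads for LPS WT and 1281 for LPS T58A. Clec10a and Ccl17 had no reads in any LPS library. The sum changed by 0.51 and 0.52 on the log2 scale in pairs 1 and 2 as matched, but by -0.31 in pair 3. The part of these markers was not tested.

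**Figure D4:**
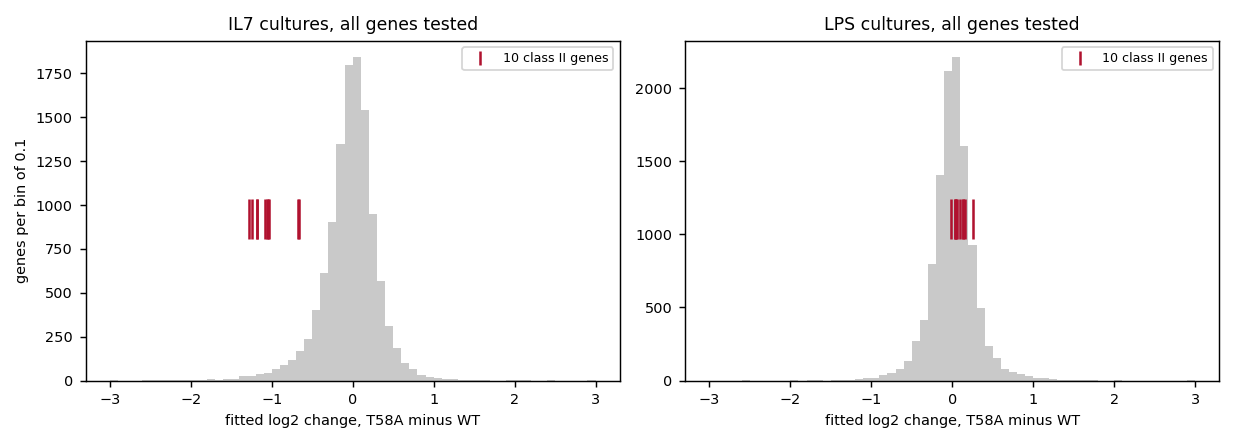
Number of genes per 0.1 of fitted log2 change (T58A minus WT) for the 11604 genes tested in IL7 and the 11291 in LPS cultures, with values beyond 3 in the end bins; red ticks mark the 10 class II genes and their height carries no value. The ticks lie from -1.28 to -0.67 in IL7 cultures and from -0.02 to 0.25, within the bulk of genes, in LPS cultures.

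The change in LPS cultures minus the change in IL7 cultures was positive for all 10 genes, from 0.81 (H2-Ob) to 1.33 (H2-Aa) on the log2 scale, with a median of 1.18. Its standard errors of 0.45 to 0.65 came from a fit over 12 libraries without pairs, in which the spread between marrow pairs counts as error. In that fit 0 of 10 members and 0 of 10767 genes were called by limma (0.0%), while 4 members and 479 genes had an unadjusted p under 0.05. With the pair as a block in both cultures all 10 members were called, as were 441 genes, of which 344 were higher (3.19%). That pairing rests in the LPS cultures on the match to the authors' p-values. Leaving out 1 library moved the members' median from 0.75 (without IL7 T58A 3) to 1.60 (without IL7 WT 3).

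For each of the 10 genes, WT levels differed more between the cultures than group means did between the genotypes in IL7 cultures. Every LPS library was above every IL7 library for all 10 genes, as a share of assigned reads. WT means were 9.35 times higher in LPS than in IL7 cultures for H2-Aa, 9.15 times for H2-Eb1 and between 2.69 (H2-Ob) and 4.85 times (H2-DMb2) for the others. In T58A the ratios were larger, from 4.87 for H2-Ob to 24.4 for H2-Aa. Cell source, stimulus, stage and table differ together here and cannot be told apart, so no test was made.

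Per kilobase of transcript, Cd74 led in every group. In IL7 WT it was at 952 ± 656 RPKM (reads scaled to transcript length and to the library's assigned reads), followed by H2-Aa at 254 ± 155, H2-Ab1 at 237 ± 145, H2-Eb1 at 138 ± 80.3 and H2-Ob at 99.4 ± 45.3 (SD, n = 3). H2-DMa (25.6 ± 13.6) and H2-Oa (25.2 ± 13.8) came next, then H2-DMb2 (13.4 ± 7.66), Ciita (10.0 ± 5.08) and H2-DMb1 (8.72 ± 3.65). H2-Aa and H2-Ab1, H2-DMa and H2-Oa, and Ciita and H2-DMb1 changed places between WT libraries, so these neighbours did not differ beyond their spread. In LPS WT the order was Cd74 (3736 ± 110), H2-Aa (2375 ± 329), H2-Eb1 (1267 ± 136), H2-Ab1 (1064 ± 92.5), H2-Ob (268 ± 72.2), H2-Oa (96.4 ± 29.8), H2-DMa (86.1 ± 16.6), H2-DMb2 (65.1 ± 6.51), Ciita (42.5 ± 8.30) and H2-DMb1 (33.5 ± 4.84), and only H2-Oa and H2-DMa changed places. H2-Ob was much the more abundant chain of H2-O by this measure in both cultures.

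**Figure D5:**
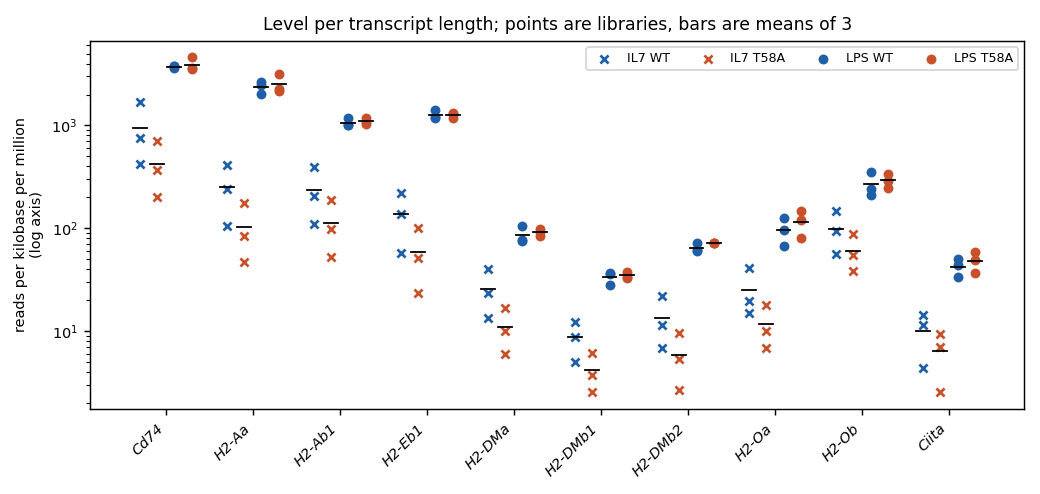
RPKM, reads scaled to transcript length and to the library's assigned reads (log axis), for each class II gene, with IL7 as crosses, LPS as circles, WT in blue, T58A in red and bars for means of 3 libraries. Cd74 is highest in each group (952 in IL7 WT and 3736 in LPS WT), and every LPS point lies above every IL7 point of the same gene.

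The rest of the class II pathway was described with 6 lists of 74 genes, chosen for their roles, of which 66 were tested in IL7 cultures. By limma with the pair as a block 20 of them were called lower and 1 higher, beside 6.31% and 6.41% of all genes, and without the block, or with sex added to it, 0 were called. Of 10 DNA-binding factors and cofactors of class II promoters (the RFX and NF-Y complexes, CREB1 and acetyltransferases) none was called. Their median log2 change was -0.13, and the one with the smallest p, the RFX subunit gene Rfxap, changed by -0.25 ± 0.11 (adjusted p = 0.155).

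Of 16 genes that regulate Ciita in one cell type or another, 6 were called lower and none higher. Over all genes these shares were 6.31% and 6.41%. The median log2 change of the 16 was -0.30. Foxo1, a B cell transcription factor restrained by PI3K signalling, went from 2315 ± 344 to 1676 ± 242 normalised reads (SD, n = 3), a change of -0.47 ± 0.08 (adjusted p = 0.0101). Spib, an ETS-family factor of B cells, changed by -0.41 ± 0.08 (adjusted p = 0.0158). Bcl6, a repressor, changed by -0.83 ± 0.16 (adjusted p = 0.0152). Neither Spib nor Bcl6 was called without pair 2. Within pair 3, the pair of 1 sex, the log2 changes were smaller, at -0.29 for Foxo1, -0.20 for Spib and -0.56 for Bcl6.

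Of 20 processing and turnover genes 7 were called lower and 1 higher, beside 6.31% and 6.41% of all genes. Their median log2 change was -0.30. Ctss encodes cathepsin S, the protease that trims the invariant chain in B cells, and it went from 1037 ± 271 to 664 ± 88.3 normalised reads, a change of -0.62 ± 0.09 (adjusted p = 0.00723). Ctsh, another cathepsin gene, changed by -1.31 ± 0.16 (adjusted p = 0.00398). Ifi30, the lysosomal thiol reductase GILT, changed by -0.60 ± 0.11 (adjusted p = 0.0127), and Unc93b1, the chaperone of endosomal Toll-like receptors, by -0.64 ± 0.10 (adjusted p = 0.00845). Within pair 3 the changes were -0.30 for Ifi30, -0.90 for Ctsh, -0.49 for Unc93b1 and -0.58 for Ctss. The gene called higher was March8, a ubiquitin ligase able to send class II for degradation. It went from 65.0 ± 11.0 to 110 ± 6.71 normalised reads, a change of 0.76 ± 0.17 (adjusted p = 0.0273). Its change within pair 3 was 1.07. It missed the threshold without pair 2, without pair 3 and with DESeq2. March1, a related ligase gene of the same list, went the other way and was called lower. It went from 90.9 ± 42.8 to 46.8 ± 10.6 normalised reads, a change of -0.87 ± 0.23 (adjusted p = 0.0399). Within pair 3 the March1 change was -0.34.

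Of 8 costimulatory genes tested 3 were called lower, beside 6.31% of all genes, with a median log2 change of -0.69. Cd83, which shields class II from that kind of degradation, changed by -1.80 ± 0.22 (adjusted p = 0.00404). Cd86, a ligand of CD28, was low in every library, at 53.6 ± 23.1 normalised reads in WT and 11.0 ± 8.17 in T58A, and its change of -2.45 ± 0.63 (adjusted p = 0.0392) rests in part on pair 2, without which it was -1.35 and not called. Cd40, the receptor for T cell help, changed by -0.81 ± 0.18 (adjusted p = 0.0262) and was not called without pair 1 or pair 3. Within pair 3 the changes were -1.08 for Cd83, -0.74 for Cd86 and -0.78 for Cd40. Of 8 other genes tested around the class II region 3 were called lower. These were the class I heavy chain gene H2-K1 (-0.64 ± 0.06, adjusted p = 0.00223), the peptide transporter gene Tap1 (-0.40 ± 0.06, adjusted p = 0.00831) and the immunoproteasome gene Psmb9 (-0.33 ± 0.08, adjusted p = 0.0310), the last not called without pair 3. Of 4 partners of surface CD74 tested 1 was called lower, Cxcr4, a chemokine receptor gene (-0.42 ± 0.09, adjusted p = 0.0202). Within pair 3 the changes were -0.66 for H2-K1, -0.36 for Tap1, -0.44 for Psmb9 and -0.29 for Cxcr4.

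In LPS cultures 0 of 70 list genes tested were called by limma. The smallest p among the regulators of Ciita belonged to Prdm1, the plasmablast factor that represses Ciita, at -0.60 ± 0.21 (adjusted p = 1), and to Irf4, at -0.51 ± 0.21 (adjusted p = 1). March8 was at -0.51 ± 0.30 and H2-K1 at -0.24 ± 0.19, neither called.

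The genes most like the class II pattern in IL7 cultures were found by the root mean square difference of centred log2 values from the mean of Cd74, H2-Aa, H2-Ab1 and H2-Eb1 over 6 libraries, among 9094 genes. They were Lat2 (0.169), Ncf1 (0.199), Clcf1 (0.202), Btla (0.218), Bhlhe41 (0.221), Samhd1 (0.254), Blvrb (0.257) and Trio (0.262), on a reference that spanned 3.03 log2 units. Lat2, an adaptor of B cell receptor signalling, was at 917 and 415 normalised reads in pair 1, at 482 and 291 in pair 2, and at 273 and 126 in pair 3. By the same measure the members that did not set the reference lay between 0.102 (H2-DMb2) and 0.357 (H2-Ob), so all 8 named genes were nearer to the classical chains than H2-Ob and Ciita were. In LPS cultures the reference spanned only 0.203 log2 units, and the nearest of 8826 genes, Sbk1 at 0.0320, is near in a pattern with little variation.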

How the data were processed

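Libraries were made from total RNA with the TruSeq RNA v2 kit, per the labels' protocols. The submitters' processing notes name the tools bcl2fastq 1.8.4, TopHat2 2.1.0, HTSeq 0.6.1 and DESeq2 and the build mm10, and the strand setting of the counting is not given in the sources used here. The signal that the authors deposited for each gene is a count scaled by a size factor of its library: 100% of values were whole multiples, within 0.001, of what 1 read is worth in their column. Beside it the deposited tables hold the authors' p-value, adjusted p-value and log2 fold change for T58A against WT.

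Low genes were removed within each culture on these recovered reads (edgeR 4.0.16, filterByExpr with a minimum count of 10 and a total of at least 15). Tests used limma-trend (limma 3.58.1, R 4.3.3) on log2 of the deposited signal plus 1, at a Benjamini-Hochberg adjusted p under 0.05 over all genes tested, so fold changes of low genes are understated. IL7 cultures were fitted with the pair as a block, LPS cultures without one, and the difference between cultures over 12 libraries without one. The T58A fits within each culture were also run on simulated data. The simulated LPS libraries carried no pair effect, so that run does not show how the LPS fit handles pairs. DESeq2 1.42.0 and edgeR were alternatives.

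The titles number the pairs. In IL7 cultures same-numbered libraries deviated together (correlations of deviations from the group means 0.411, 0.152 and 0.397, against -0.362 to -0.0451 otherwise), and a DESeq2 fit with the block gave p-values within 1% of the authors' for 94.0% of genes, against 15.8% without. In LPS cultures pairing the first unnumbered column with WT 1 matched 99.7%, and the exchanged pairing 17.0%.

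All 10 members are named in every library. From each pathway list up to 4 called genes with the smallest p per direction are named, or up to 2 where none passed. A gene that this rule takes is not reported here. The 8 most alike genes had a mean log2 of at least 6. The members, lists, tests and the use of the block were chosen with earlier results of these data known. Levels per kilobase use the longest GENCODE M21 transcript, a release that may not be the authors'. H2-DMb1 and H2-DMb2 share sequence, as given with their values.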

Additional observations from a re-analysis of the deposited data

How the results depend on the processing

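In IL7 cultures 1476 genes, 10 members and 21 other pathway genes were called with the pair as a replicate block. With no replicate block 0, 0 and 0 were called. With sex as a further term beside the block 42, 4 and 0 were called, a fit with 1 residual degree of freedom. Leaving out 1 pair gave 775 to 1396 genes, the lowest without pair 2 and 840 without pair 3, and 10 members each time. Another pseudocount, no filter, TMM scaling, edgeR and DESeq2 gave 1030 to 1482 genes and 10 members. In LPS cultures 0 genes were called, against 4 with the block (first unnumbered column with WT 1), 1 with DESeq2 without a block, 225 in the authors' deposited table, and 0 to 6 with 1 library left out (6 without WT 3, 1 without T58A 3). No member or other pathway gene was called in LPS cultures under any of these. For the difference between cultures 0 genes were called, against 441 genes and 10 members with the block in both cultures, and 0 to 1 genes and 0 members with 1 library left out (1 without IL7 T58A 2). No named gene changed direction past the threshold. The cause of these changes was not tested. With 3 libraries per group, calls in IL7 cultures depend on the pairing. In the LPS cultures, differences within the standard errors given were not detectable. Larger ones also went uncalled in the fit without a block, as for Prdm1 at -0.60 ± 0.21.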
